A study of Homo sapiens with 6 samples.

Results

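The class IIa histone deacetylases HDAC4, HDAC5, HDAC7 and HDAC9 and the MEF2 factors MEF2A, MEF2C and MEF2D were examined in bladder cancer cells with STIL knockdown. HDAC9 was chosen by its rise in these libraries, which ranked 26 among all genes and 12 among the 11319 genes whose log2 CPM averaged 1 or more. The other 6 genes were taken by family. All 7 were found among the 15953 genes of the deposited log2 CPM tables (CPM, reads scaled to a common library size, on the log2 scale). The values of HDAC9 are therefore a description and carry no test.

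EJ is an established human bladder cancer cell line. It was compared in 2 groups of 3 RNA-seq libraries: cells with stable lentiviral knockdown of STIL (shSTIL) and cells with the negative control virus (shNC). The sample labels name short hairpin RNA, whereas the column headings of the tables name siRNA. The hairpin sequence and the number of hairpins are not given in the sources used here. Nor do they state whether the 3 replicates of a group came from separate cultures, so p-values measure only the spread between these libraries. The libraries held 16214772 to 16431243 reads in the shNC group and 16734469 to 16901634 reads in the shSTIL group.

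The labelled cell type was compared with its markers. KRT18, a keratin of simple epithelia, lay between 607 and 659 CPM in the 6 libraries, and PPARG, a urothelial nuclear receptor, between 18.5 and 23.9 CPM. KRT8, another keratin of simple epithelia, was 386, 372 and 376 CPM in the shNC libraries and 234, 239 and 224 CPM in the shSTIL libraries. KRT7 moved the other way, with 96.3, 82.5 and 93.4 CPM against 124, 130 and 129 CPM. Several defining urothelial markers were near the floor of the assay: UPK2 reached at most 0.312 CPM, GATA3 0.566 CPM, CDH1 0.184 CPM and KRT5 0.0584 CPM. KRT19 and UPK3A were not analysed here. The 11 measured epithelial and urothelial markers summed to 1151, 1094 and 1154 CPM in the shNC libraries and 992, 1024 and 999 CPM in the shSTIL libraries. This lower sum lay in KRT8 (log2 fold change -0.70, limma adjusted p = 1.13e-09), while KRT7 rose (0.49, limma adjusted p = 1.98e-06). PPARG was also called higher and the sparsely read UPK1B lower, but PPARG was called only without shNC replicate 3 among the 6 fits with 1 library left out, and UPK1B in none of them (limma adjusted p 0.0226 to 0.0342 and 0.0114 to 0.0580 where lost). Both calls were also lost with DESeq2 (adjusted p = 0.0164 for PPARG and 0.0271 for UPK1B). The part of these markers in the results that follow was not tested. Class IIa deacetylases and MEF2 factors are best known from muscle, neurons, endothelium and blood cells. The 3 measured skeletal muscle markers, ACTA1, CKM and DES, summed to at most 0.648 CPM in any library, the 3 endothelial markers to 0.981 CPM and the blood cell marker CD14 to 0.234 CPM. The 3 neuron markers summed to 0.312, 0.184 and 0.44 CPM in the shNC libraries and 0.584, 0.698 and 0.53 CPM in the shSTIL libraries. Of them SYT1, a synaptic vesicle protein, was called higher, from 0 CPM in each shNC library to 0.351, 0.349 and 0.0589 CPM (log2 fold change 1.5, standard error 0.36, limma adjusted p = 0.00292). Among the fits with 1 library left out it was called only without shSTIL replicate 3 (limma adjusted p 0.0561 to 0.0691 in the others). COL1A1, the measured fibroblast marker, was 3.68, 2.33 and 3.27 CPM in the shNC libraries and 1.87, 1.22 and 1.47 CPM in the shSTIL libraries (log2 fold change -0.96, standard error 0.22, limma adjusted p = 0.00196). Its call was kept only without shNC replicate 2 (limma adjusted p 0.0175 to 0.0503 in the others). The part of SYT1 and COL1A1 in the results was not tested.

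Class IIa deacetylases are corepressors with weak catalytic activity of their own that carry signals between the cytoplasm and the nucleus. In the nucleus they bind MEF2 factors, which read AT-rich sites in DNA, and hold the genes there silent together with the NCOR complex. Calcium-dependent and other kinases phosphorylate them, 14-3-3 proteins then bind, and the exportin XPO1 takes them out of the nucleus, which frees MEF2. HDAC9 is itself a known target gene of MEF2 and, in muscle, part of a feedback on it.

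STIL, a protein needed for centriole assembly and the target of the hairpin, was read first as a check of the labels. Its log2 CPM was 5.98, 6.10 and 6.01 in the shNC libraries and 4.05, 4.06 and 4.01 in the shSTIL libraries, so every library matched its label. The log2 fold change was -1.99 (standard error 0.05, n = 3 per group, limma adjusted p = 6.10e-12), which leaves 25.2% of the control level. With all 20 ways to label the libraries, the exact permutation test (two-sided) gave p = 0.1, the smallest value it allows. In bulk RNA such a difference cannot tell fewer expressing cells from less RNA per cell.

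HDAC9 spans 915 kb of chromosome 7 (GRCh38, GENCODE 29, chr7:18086949-19002416, plus strand). Its short product MITR lacks the catalytic domain, and values per gene cannot tell MITR from the full-length enzyme. The promoters of the family were read from RefSeq (GRCh38.p14), where an entry runs from 250 bases before to 50 bases after a start site. Of the 7 members, 6 had entries, 22 promoters in all, and HDAC5 had none. The MEF2 consensus was searched on both strands. It was found in 3 of these 22 promoters, 1 each of HDAC9, MEF2A and MEF2C, and in 2.99% of all 35116 promoters of the table. Of the 1050 promoters with the consensus, 20% held it in overlap with the TATA box letters TATAAA, which was not so in these 3. The promoters are shown because they hold the letters that the factors of this family read. Each runs 5′ to 3′ on the strand of its gene, and capitals mark the consensus.
HDAC9, chr7:18086575-18086874, plus strand: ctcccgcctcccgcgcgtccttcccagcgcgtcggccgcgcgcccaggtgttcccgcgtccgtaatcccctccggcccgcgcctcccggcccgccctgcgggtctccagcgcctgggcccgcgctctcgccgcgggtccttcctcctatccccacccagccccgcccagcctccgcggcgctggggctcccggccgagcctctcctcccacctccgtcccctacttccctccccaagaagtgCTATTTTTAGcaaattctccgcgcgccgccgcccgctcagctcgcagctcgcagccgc
MEF2A, chr15:99565734-99566033, plus strand: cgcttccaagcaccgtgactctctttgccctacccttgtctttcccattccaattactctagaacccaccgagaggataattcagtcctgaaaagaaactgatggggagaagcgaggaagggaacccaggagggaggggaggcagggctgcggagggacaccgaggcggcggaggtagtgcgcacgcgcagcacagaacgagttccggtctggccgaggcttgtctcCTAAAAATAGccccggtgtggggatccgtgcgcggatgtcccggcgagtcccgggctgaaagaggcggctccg
MEF2C, chr5:88824295-88824594, minus strand: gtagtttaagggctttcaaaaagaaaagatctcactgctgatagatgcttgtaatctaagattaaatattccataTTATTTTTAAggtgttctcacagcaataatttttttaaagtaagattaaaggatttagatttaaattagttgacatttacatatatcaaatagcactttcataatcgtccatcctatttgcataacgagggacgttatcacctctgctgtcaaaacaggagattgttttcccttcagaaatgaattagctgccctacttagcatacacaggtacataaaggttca
The match of HDAC9 began 8 bases before the start site of the most upstream of its 5 promoters, in a window with 75% G and C. That of MEF2A began 23 bases before the start site in 1 of its 3 promoters, and that of MEF2C 175 bases before it in 1 of 7. The 5 promoters of HDAC4 and the single entries of HDAC7 and MEF2D did not hold these letters. Those single entries, chr12:47819854-47820153 for HDAC7 and chr1:156490638-156490937 for MEF2D, lie inside their genes. On the minus strand, HDAC7 starts at chr12:47833132 and MEF2D at chr1:156500828 in GENCODE 29, and these outermost starts were not searched. Whether a MEF2 factor binds there was not measured, and reads per gene do not say which start site was used.

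HDAC9 had 132, 149 and 126 reads in the shNC libraries and 697, 712 and 720 reads in the shSTIL libraries. On the log2 scale this was 3.06, 3.21 and 3.01 CPM against 5.35, 5.38 and 5.41 CPM. Every shSTIL library lay above every shNC library, and the replicates of a group were close to each other. The mean was 8.43 ± 0.634 CPM (SD, n = 3) in shNC cells and 41.5 ± 0.842 CPM (SD, n = 3) in shSTIL cells. The log2 difference was 2.29, or 4.88-fold.

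HDAC4, a class IIa deacetylase known for its control of cartilage and bone growth, had a log2 CPM of 3.61, 3.44 and 3.71 in the shNC libraries and 4.52, 4.33 and 4.45 in the shSTIL libraries. The groups did not overlap. It rose 1.80-fold (log2 fold change 0.85, standard error 0.09, limma adjusted p = 1.78e-06), in 3 of 3 libraries.

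HDAC5, a signal-responsive repressor studied in heart and neurons, had a log2 CPM of 6.14, 6.01 and 6.08 in the shNC libraries and 5.96, 6.01 and 5.96 in the shSTIL libraries. The groups overlapped. The log2 difference of -0.10 (95% interval -0.19 to -0.01, limma adjusted p = 0.0665) did not pass the threshold of 0.01.

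HDAC7, best known from endothelium and thymocytes, had a log2 CPM of 6.58, 6.52 and 6.52 in the shNC libraries and 6.43, 6.41 and 6.44 in the shSTIL libraries. Here the shSTIL libraries lay just below the shNC libraries, with no overlap. The log2 difference of -0.12 (95% interval -0.19 to -0.04, limma adjusted p = 0.0123) missed the threshold of 0.01. After median centring, the difference was -0.06 for HDAC5 (limma adjusted p = 0.287) and -0.07 for HDAC7 (limma adjusted p = 0.0949).

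**Figure D1:**
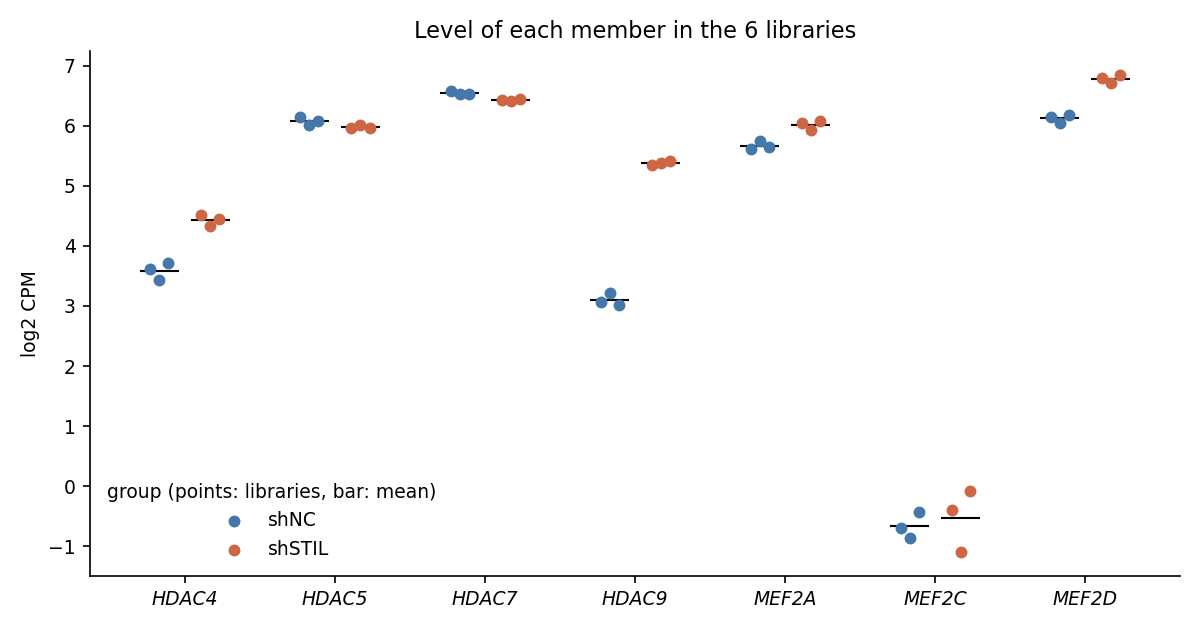
Log2 CPM (vertical axis) of the 7 genes (horizontal axis) in the 3 shNC and 3 shSTIL libraries; points are libraries and bars are group means. HDAC9, from 3.01 to 3.21 in shNC and from 5.35 to 5.41 in shSTIL libraries, passes HDAC4, and MEF2C lies below all other genes.

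Among the MEF2 factors, MEF2D was the most abundant per length. Its log2 CPM was 6.15, 6.05 and 6.17 in the shNC libraries and 6.79, 6.71 and 6.85 in the shSTIL libraries. It rose 1.58-fold with no overlap of the groups (log2 fold change 0.66, standard error 0.04, limma adjusted p = 3.35e-08).

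MEF2A, the other MEF2 factor with many reads, had a log2 CPM of 5.61, 5.75 and 5.65 in the shNC libraries and 6.04, 5.93 and 6.08 in the shSTIL libraries. It rose 1.27-fold, again with no overlap (log2 fold change 0.35, standard error 0.05, limma adjusted p = 5.30e-05). The call was lost in 4 of the 6 fits that left out 1 library. With limma the adjusted p was 0.0101 without shNC replicate 1, 0.0113 without shNC replicate 3, 0.0136 without shSTIL replicate 1 and 0.0129 without shSTIL replicate 3, at log2 fold changes of 0.32 to 0.34.

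MEF2C, a factor of muscle, neural crest and lymphocytes, had 8, 7 and 10 reads in the shNC libraries and 11, 6 and 14 reads in the shSTIL libraries. The groups overlapped. A difference was not detectable at this depth (log2 difference 0.14, 95% interval -0.49 to 0.76, limma adjusted p = 0.706), and without shSTIL replicate 3 the difference was -0.08. MEF2C was the 1 member with a mean log2 CPM under 1.

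Of the 6 genes taken by family, 3 passed the threshold, all 3 of them higher in shSTIL cells (HDAC4, MEF2A and MEF2D). The threshold was passed by 47.1% of all genes, 23.5% higher and 23.6% lower. Calls were more frequent at genes with more reads, 61.9% of the 11319 genes averaging a log2 CPM of 1 or more against 10.9% of the other 4634. The groups did not overlap for 4 of these 6 genes, with HDAC9 left out, and for 60.3% of all genes. The median log2 fold change of the 6 was 0.24, against 0.01 over all genes. Because these genes were brought in by the rise of HDAC9 in the same comparison, nothing is read from these shares.

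The reads of the members were whole numbers in all 6 libraries within 0.004 reads, with no fraction shared with similar genes. MEF2B, the remaining MEF2 gene, was different. It overlaps the read-through gene BORCS8-MEF2B on chromosome 19, and both had fractional reads. MEF2B had a log2 CPM of 1.5, 1.77 and 1.93 in the shNC libraries and 2.92, 2.93 and 2.29 in the shSTIL libraries. BORCS8-MEF2B had 3.03, 2.39 and 2.16 against 3.17, 3.38 and 3.69. The groups were apart for both genes, but the replicates were spread more than those of MEF2A or MEF2D. The log2 fold change was 0.98 for MEF2B (standard error 0.19, limma adjusted p = 5.55e-04) and 0.89 for BORCS8-MEF2B (standard error 0.20, limma adjusted p = 0.00155). Neither call is firm. MEF2B lost it in 5 of 6 fits that left out 1 library (limma adjusted p 0.0189 to 0.0420, kept only without shSTIL replicate 3). BORCS8-MEF2B also lost it in 5 of 6 (0.0448 to 0.0997, kept only without shNC replicate 1). Since the split between them is an estimate, their sum was also taken. It was 10.7, 8.39 and 8.03 CPM in the shNC libraries and 16.3, 17.8 and 17.6 CPM in the shSTIL libraries, 1.90-fold higher. BORCS8, a lysosome-positioning gene at the upstream end of the same read-through, went the other way: its log2 CPM was 3.65, 3.57 and 3.79 in the shNC libraries and 2.69, 2.67 and 2.67 in the shSTIL libraries (log2 fold change -1.0, standard error 0.10, limma adjusted p = 1.46e-06). BORCS8 overlaps the read-through gene as well, so its reads may also be uncertain, and the sum above leaves it out. In CPM, BORCS8 was 12.4, 11.8 and 13.7 in the shNC libraries and 6.31, 6.26 and 6.22 in the shSTIL libraries. Its mean went from 12.6 to 6.27 CPM, while the mean of the sum went from 9.05 to 17.2 CPM. How reads were split between BORCS8 and the read-through gene was not tested, so the rise of the sum also rests on that split. BORCS8 was named after its values were seen.

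Levels of different genes were compared per length, as CPM per kb of the longest coding transcript in GENCODE 29. In shNC cells the order was HDAC7 (22.7 CPM per kb), HDAC5 (12.7), MEF2D (11.7), MEF2A (8.72), HDAC4 (1.33), HDAC9 (0.868) and MEF2C (0.0686). The ranges of neighbours in this order did not overlap, though HDAC5 (12 to 13.2) and MEF2D (11.1 to 12) nearly met. In shSTIL cells the order was HDAC7 (21.0 CPM per kb), MEF2D (18.5), HDAC5 (11.8), MEF2A (11.1), HDAC9 (4.28), HDAC4 (2.40) and MEF2C (0.0801), again with no overlap between neighbours. HDAC9 and HDAC4 exchanged places, as their CPM did. Other places rest on the transcript lengths used. By mean CPM without length, MEF2D stood above HDAC5 in shNC cells (69.6 against 67.4 CPM), but their libraries overlapped (66.1 to 71.8 against 64.2 to 70.4 CPM). In shSTIL cells MEF2D stood above HDAC7 (110 against 85.9 CPM). MEF2A stood above HDAC5 there (64.6 against 62.9 CPM), but their libraries overlapped (60.7 to 67.4 against 62.1 to 64.3 CPM).

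HDAC9 made up 2.19%, 2.58% and 2.18% of the summed class IIa level per kb in the shNC libraries and 10.6%, 10.8% and 11.1% in the shSTIL libraries. HDAC7 remained the main class IIa transcript, with 60.5% ± 0.626 (SD, n = 3) in shNC cells and 53.2% ± 0.343 (SD, n = 3) in shSTIL cells. HDAC5 took 33.7% ± 0.619 and 29.9% ± 0.687. The summed class IIa level was 37.6 ± 1.14 CPM per kb in shNC cells and 39.4 ± 0.124 CPM per kb in shSTIL cells. The summed level of the 3 MEF2 members was 20.5 ± 0.204 CPM per kb in shNC cells and 29.6 ± 1.47 CPM per kb in shSTIL cells. MEF2D was 57.0% ± 2.20 of it in shNC cells and 62.3% ± 0.311 in shSTIL cells. These shares rest on the transcript length used for each gene. In CPM without length, HDAC9 took 4.67% ± 0.463 (SD, n = 3) of the class IIa sum in shNC cells and 19.6% ± 0.369 (SD, n = 3) in shSTIL cells, and HDAC7 51.5% and 40.5%. That sum was 181 ± 5.45 CPM and 212 ± 1.01 CPM. These shares include values used in the choice of HDAC9 and were not tested.

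**Figure D2:**
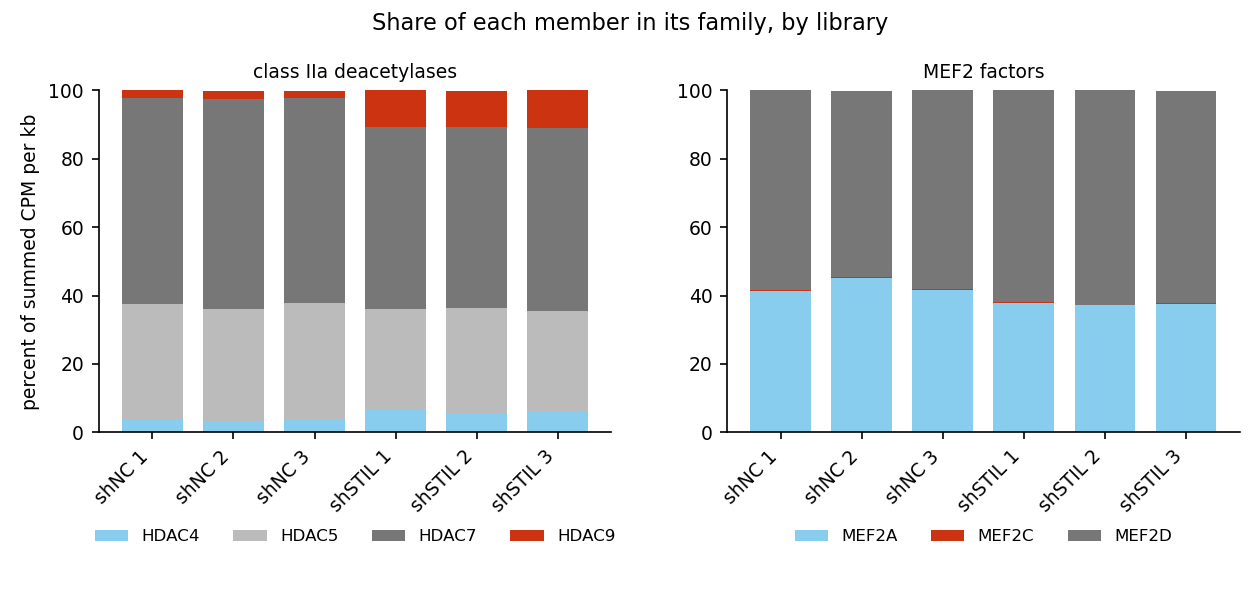
Percent of the summed CPM per kb (vertical axis, 0 to 100) that each gene took in its family, by library (horizontal axis), for the 4 class IIa deacetylases and the 3 MEF2 factors. The HDAC9 part grows from at most 2.58% in shNC libraries to at least 10.6% in shSTIL libraries, while HDAC7 and MEF2D remain the largest parts. The parts depend on the transcript lengths used.

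Of the other 7 classical deacetylases, none rose and 4 fell past the threshold (3 to 4 with 1 library left out), beside 23.5% of all genes higher and 23.6% lower. All 7 averaged a log2 CPM of 1 or more, a level at which 30.5% of all genes were higher and 31.4% lower. The median log2 fold change of the 7 was -0.18, against 0.01 over all genes, and a difference from the class IIa members was not tested. HDAC1, a nuclear enzyme of class I found in the main corepressor complexes, fell from a log2 CPM of 7.18, 7.23 and 7.20 to 6.54, 6.62 and 6.64 (log2 fold change -0.60, standard error 0.04, limma adjusted p = 1.05e-08). HDAC3, the class I enzyme that supplies class IIa complexes with catalytic activity through NCOR, fell by 0.28 on the log2 scale (limma adjusted p = 1.29e-05). HDAC6, the class IIb enzyme that deacetylates tubulin and acts below AURKA in the disassembly of cilia, had a log2 CPM of 6.45, 6.44 and 6.45 in the shNC libraries and 6.17, 6.19 and 6.18 in the shSTIL libraries (log2 fold change -0.27, standard error 0.03, limma adjusted p = 1.67e-05). HDAC2, the close relative of HDAC1, fell by 0.18 (limma adjusted p = 5.99e-04), but this call was lost without shNC replicate 2 or 3 or without any of the shSTIL replicates (limma adjusted p 0.0106 to 0.0138). HDAC8 (0.13), HDAC10 (-0.16) and HDAC11 (0.15) did not pass the threshold. The signs of these 7 genes were the same after quantile normalization and after median centring.

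**Figure D3:**
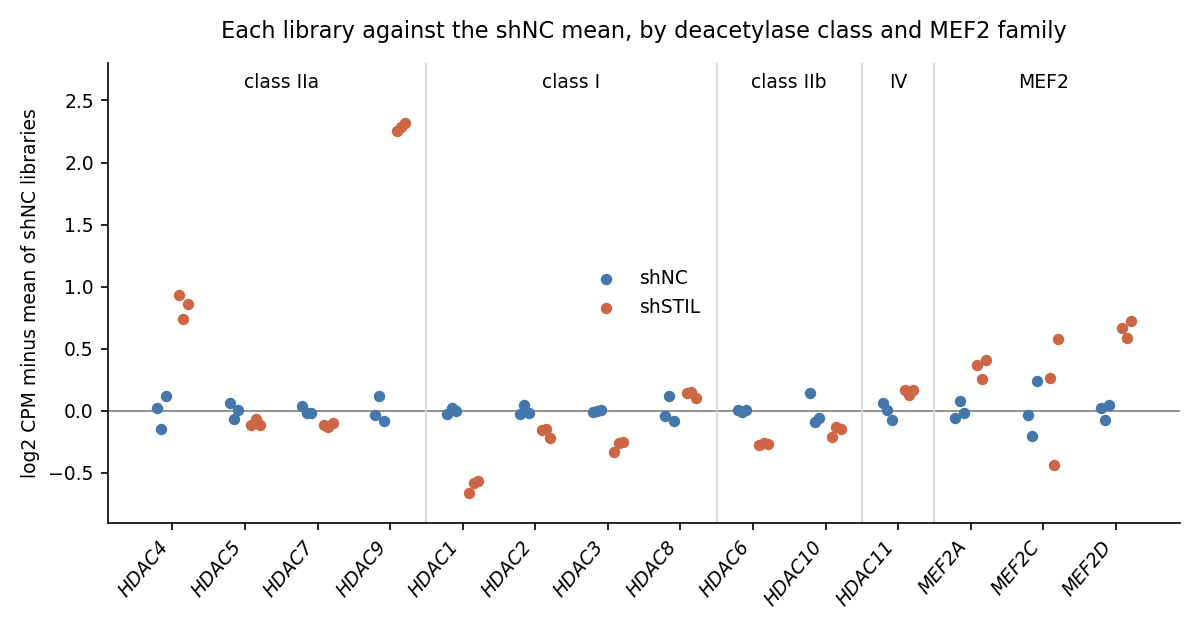
Log2 CPM of each library minus the mean of the shNC libraries (vertical axis) for the class IIa, I, IIb and IV deacetylases and the MEF2 factors (horizontal axis); each point is a library. HDAC9, HDAC4, HDAC8, HDAC11, MEF2A and MEF2D lie above 0 in all 3 shSTIL libraries. HDAC1, HDAC2, HDAC3, HDAC5, HDAC6, HDAC7 and HDAC10 lie below it in all 3, and MEF2C lies on both sides.

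The corepressor partners, proteins known to bind class IIa deacetylases, moved in both directions. Of 13 measured, 6 rose, 4 fell and 3 did not pass the threshold, beside 23.5% of all genes higher and 23.6% lower. All 13 averaged a log2 CPM of 1 or more, a level at which 30.5% of all genes were higher and 31.4% lower. The median log2 fold change of the 13 was 0.07, against 0.01 over all genes. TBL1X and TBL1XR1 are related subunits of the NCOR complex that moved in opposite directions. TBL1X rose from a log2 CPM of 6.33, 6.37 and 6.28 to 6.86, 6.88 and 6.83 (log2 fold change 0.53, standard error 0.04, limma adjusted p = 4.32e-08). TBL1XR1 fell from 6.39, 6.51 and 6.47 to 5.63, 5.74 and 5.67 (log2 fold change -0.77, standard error 0.04, limma adjusted p = 7.49e-09). GPS2, a further subunit of that complex, fell by 0.59 on the log2 scale. CTBP2, a corepressor that binds the amino-terminal part of class IIa enzymes, rose by 0.42. ANKRA2, an ankyrin-repeat partner of HDAC4 and HDAC5, rose by 0.37, a call lost without shNC replicate 2 or 3 or shSTIL replicate 2 or 3 (limma adjusted p 0.0141 to 0.0187). The histone methyltransferase SUV39H1 fell by 0.33. RFXANK, the relative of ANKRA2, fell by 0.31, a call lost without any of the shSTIL replicates (limma adjusted p 0.0119 to 0.0165).

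The kinases that phosphorylate class IIa deacetylases, with those upstream of them, were 23 measured genes, of which 7 rose, 4 fell and 12 did not pass the threshold. All 11 calls were among the 20 kinases averaging a log2 CPM of 1 or more, beside 61.9% of all genes at that level called. The median log2 fold change of the 23 was 0.03, against 0.01 over all genes. CAMK1D, a calcium-dependent kinase, rose from a log2 CPM of 3.65, 3.75 and 3.65 to 4.85, 4.6 and 4.90 (log2 fold change 1.10, standard error 0.08, limma adjusted p = 9.90e-08). SIK1, a salt-inducible kinase, rose from 3.23, 3.47 and 3.43 to 4.24, 4.21 and 4.25 (log2 fold change 0.86, standard error 0.08, limma adjusted p = 1.25e-06). MARK1 rose by 0.36 (limma adjusted p = 0.00442), a call that held among the fits with 1 library left out only without shNC replicate 3 (limma adjusted p 0.0206 to 0.0427 in the others) and was lost with DESeq2 (adjusted p = 0.0109). CAMK4 fell by 0.60, CAMK2G by 0.29 and protein kinase D1 (PRKD1) by 0.29, the last not past the threshold without shSTIL replicate 3 (limma adjusted p = 0.0128). PRKAA1, a catalytic subunit of AMPK, was called at a log2 fold change of -0.15 with all libraries and in none of the 6 fits with 1 left out (limma adjusted p 0.0208 to 0.107), nor after quantile normalization (0.0380) or median centring (0.0415). The number called in this list, 11, was 7 without shNC replicate 2 or without shSTIL replicate 2, and 6 without shSTIL replicate 3.

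Most genes of the export step, the 14-3-3 proteins and the exportin, fell. Of 8 measured, 6 fell and none rose, where 23.6% of all genes were lower and 23.5% higher. All 8 averaged a log2 CPM of 1 or more, a level at which 31.4% of all genes were lower and 30.5% higher. The median log2 fold change of the 8 was -0.37, against 0.01 over all genes. SFN, the 14-3-3 protein of epithelia, fell from a log2 CPM of 6.33, 6.23 and 6.17 to 5.40, 5.37 and 5.29 (log2 fold change -0.89, standard error 0.05, limma adjusted p = 4.95e-09). XPO1, the exportin, fell from 8.47, 8.58 and 8.54 to 7.98, 8.02 and 8.02 (log2 fold change -0.52, standard error 0.03, limma adjusted p = 2.05e-08). YWHAQ fell by 0.47 on the log2 scale (limma adjusted p = 2.12e-08). The 2 genes that did not pass were YWHAG (0.05) and YWHAZ (-0.11, limma adjusted p = 0.0111), YWHAZ being among the most abundant of the list. Where the deacetylase proteins lay in the cell was not measured.

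The cofactors of MEF2 and the proteins of the signalling that reaches it moved in both directions. Of 21 measured, 8 rose and 7 fell, beside 23.5% of all genes higher and 23.6% lower. All 15 calls were among the 19 averaging a log2 CPM of 1 or more, beside 61.9% of all genes at that level called. The median log2 fold change of the 21 was 0.13, against 0.01 over all genes. CREBBP, an acetyltransferase that MEF2 recruits when class IIa enzymes have left, rose from a log2 CPM of 6.33, 6.33 and 6.27 to 7.12, 7.0 and 7.12 (log2 fold change 0.77, standard error 0.04, limma adjusted p = 3.17e-09). KAT2B, another acetyltransferase, fell from 4.30, 4.52 and 4.29 to 3.5, 3.56 and 3.54 (log2 fold change -0.84, standard error 0.08, limma adjusted p = 1.17e-06). MAP2K3, which activates p38, a kinase of MEF2A and MEF2C, rose by 0.76. MAP2K6, its partner in activating p38, fell from 74, 75 and 98 reads to 15, 31 and 19 reads (log2 fold change -1.96, standard error 0.24, limma adjusted p = 9.09e-06, and 0.0111 without shSTIL replicate 3). MAPK11, a p38 kinase, fell by 0.74. MAPK14, a more abundant p38 kinase, was called at 0.13 (limma adjusted p = 0.00951), but among the fits with 1 library left out only without shNC replicate 2 (0.0190 to 0.0278 in the others), and neither edgeR (adjusted p = 0.0131) nor DESeq2 (adjusted p = 0.0366) called it. MAPK14 was named after its values were seen. GSK3B rose by 0.48.

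Genes known as MEF2 targets in other tissues were mostly low here: 12 of the 19 measured had a mean log2 CPM under 1, and MYOG was not analysed here. Of the 19, 4 rose and 1 fell. The 7 more abundant targets held 3 of these calls, beside 61.9% of all genes at that level called, and the 12 others held 2, beside 10.9%. The median log2 fold change was 0.13, against 0.01 over all genes. KLF6, a zinc finger factor, rose from a log2 CPM of 7.86, 7.93 and 7.88 to 8.64, 8.61 and 8.62 (log2 fold change 0.73, standard error 0.03, limma adjusted p = 3.13e-10). KLF4 rose by 0.69 and BDNF, a neurotrophin, by 0.67. The other calls rested on few reads. MMP10, a matrix metalloproteinase, had 11, 6 and 10 reads in the shNC libraries and 49, 40 and 38 reads in the shSTIL libraries. SLC2A4, the insulin-responsive glucose transporter, had 10, 8 and 12 reads against 4, 3 and 1, and its call held in only 1 of the 6 fits with a library left out, that without shSTIL replicate 1 (limma adjusted p 0.0106 to 0.0255 in the others), and was lost with DESeq2 (adjusted p = 0.0206). Among the 7 more abundant targets, NR4A1 (log2 difference 0.18), KLF2 (-0.02), JUN (-0.01) and ENO3 (0.58, limma adjusted p = 0.0493) did not pass the threshold. These uncalled genes were named after their values were seen.

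**Figure D4:**
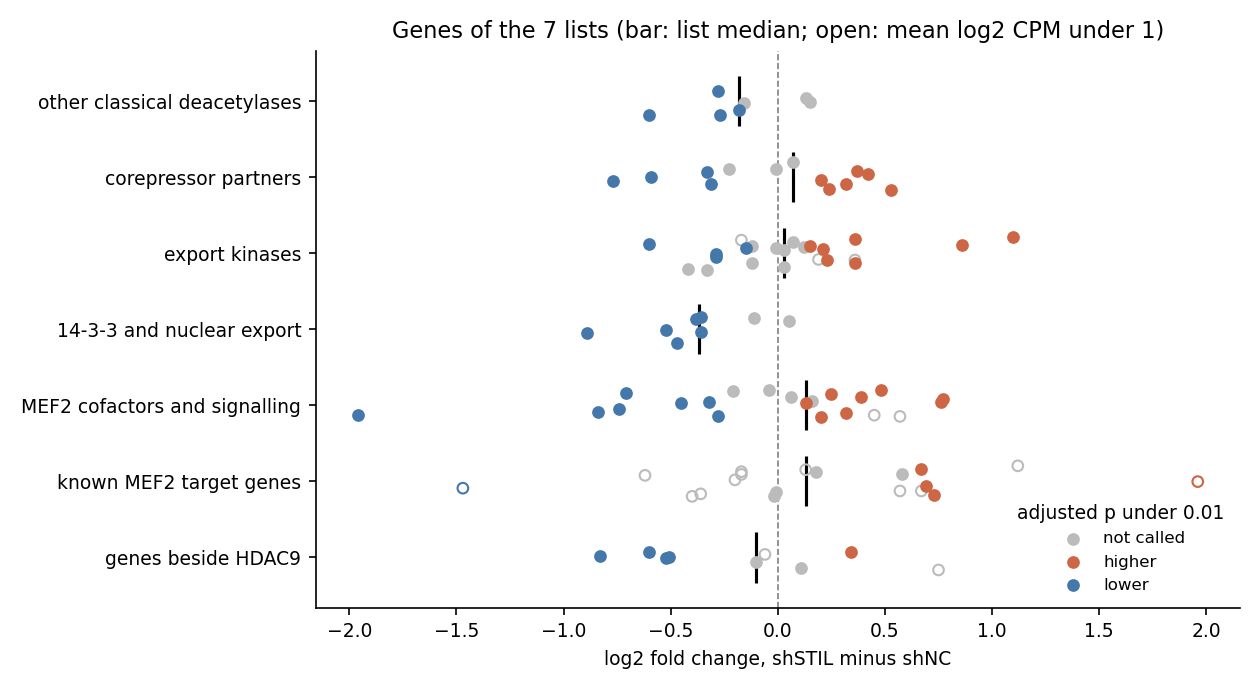
Log2 fold change of shSTIL against shNC (horizontal axis) for each measured gene of the 7 lists (vertical axis, points spread at random within a list); colour marks genes with a limma adjusted p under 0.01, open points a mean log2 CPM under 1, and black bars the list median. Every list holds genes on both sides of 0, and the lowest median is that of the 14-3-3 and nuclear export genes (-0.37).

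The rise of HDAC9 was set beside its surroundings on chromosome 7. Of 21 other measured genes that start within 5 Mb of the HDAC9 start, 4 rose, 6 fell and 11 did not pass the threshold. The 10 calls were among the 14 that averaged a log2 CPM of 1 or more, beside 61.9% of all genes at that level called. For the 21, the median log2 fold change was -0.10, against 0.01 over all genes. The nearest, SNX13, a sorting nexin that starts 0.15 Mb upstream, fell from a log2 CPM of 5.27, 5.28 and 5.31 to 4.72, 4.56 and 4.77 (log2 fold change -0.60, standard error 0.06, limma adjusted p = 1.65e-06). POLR1F, a subunit of RNA polymerase I that starts 1.62 Mb downstream, rose by 0.34 (limma adjusted p = 7.72e-05, and 0.0116 without shSTIL replicate 3). Further upstream, ANKMY2 fell by 0.52. TSPAN13 fell by 0.83, a call lost without shNC replicate 1 or 2 or shSTIL replicate 1 or 3 (limma adjusted p 0.0109 to 0.0131). AHR, the aryl hydrocarbon receptor, fell by 0.51, lost without shNC replicate 3 or any of the shSTIL replicates (limma adjusted p 0.0167 to 0.0225). The other rises were ETV1 (0.40), IL6 (0.76) and FAM126A (0.22), all over 4 Mb away and named after their values were seen. On the same side as POLR1F, RAPGEF5 (-0.61, limma adjusted p = 1.11e-08) and CDCA7L (-0.45, limma adjusted p = 1.13e-05) fell, and these were also named after their values were seen. FAM126A was called in none of the 6 fits with a library left out (limma adjusted p 0.0128 to 0.0626). TWIST1, which lies just beyond the end of HDAC9, was not analysed here. In the list of genes beside HDAC9, 1 of 9 measured rose and 4 fell (POLR1F, and SNX13, ANKMY2, TSPAN13 and AHR), 5 calls that became 3 without shSTIL replicate 1 and 2 without shSTIL replicate 3.

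**Figure D5:**
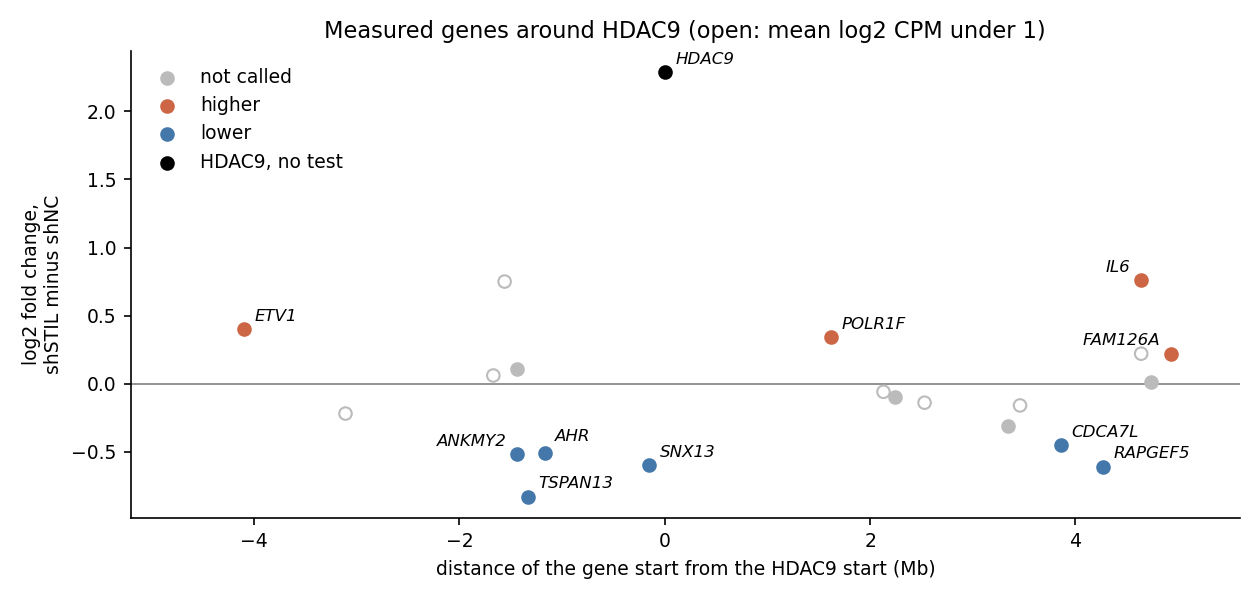
Log2 fold change of shSTIL against shNC (vertical axis) for the 22 measured genes that start within 5 Mb of HDAC9, by the distance of their start from that of HDAC9 (horizontal axis, Mb); colour marks genes with a limma adjusted p under 0.01 and open points a mean log2 CPM under 1. HDAC9 stands at 2.29, and the other genes lie between -0.83 and 0.76.

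The genes with the pattern most like HDAC9 were taken as those with the smallest Euclidean distance between log2 CPM centred on each gene's mean over the 6 libraries, among 11318 other genes whose log2 CPM averaged 1 or more. They were the zinc finger gene ZNF862 (distance 0.21), CCDC149 (0.26), the neuron navigator NAV2 (0.27), the ribosomal protein paralogue RPL22L1 (0.27) and CD274, which encodes PD-L1 (0.27). The log2 difference between the groups was 2.16 for ZNF862, 2.25 for CCDC149, 2.16 for NAV2, 2.08 for RPL22L1 and 2.15 for CD274. ZNF862 had 70, 77 and 63 reads in the shNC libraries and 344, 355 and 319 reads in the shSTIL libraries. These genes were picked for this likeness, so their differences were not tested.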

How the data were processed

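Per the labels and methods, RNA of EJ cells was sequenced on the BGISEQ-500, and the authors mapped reads with Bowtie2, estimated expected counts per gene with RSEM and computed log2 CPM with edgeR. The submitters' processing notes name hg38 and limma, without versions. The deposited log2 CPM of 15953 genes in 6 libraries were fitted with limma 3.58.1 (eBayes with trend, R 4.3.3), with Benjamini-Hochberg adjustment over all genes and a threshold of 0.01. The deposited expected counts cover 4 libraries, 1 of them shNC. Reads of all 6 were therefore recovered from the log2 CPM (prior count 2). Of these values 87.1% to 87.4% were whole within 0.004 reads, and they were rounded for edgeR 4.0.16 (7828 genes called) and DESeq2 1.42.0 (6782).

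The fits were tested on simulated data, where the false calls of limma lay at genes with very few reads. Calls at such genes, SYT1 among them, are therefore weaker than the threshold states. The simulation changed far fewer genes than were called here and gave every gene the same spread beyond sampling noise. It therefore does not measure how many calls at genes with more reads are false in these data.

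The members and lists were chosen with earlier results of these data known. Named are every member, STIL, MEF2B, every other classical deacetylase, up to 3 called rises and falls per list averaging a log2 CPM of 1 or more, genes behind counts of 5 or fewer, and the 5 genes nearest to HDAC9. Replicates of a group differed by more than sampling noise (chi-square per degree of freedom 1.69 to 3.48). Positions are those of GRCh38.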

Additional observations from a re-analysis of the deposited data

How the results depend on the processing

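The direction of STIL, HDAC4, HDAC5, HDAC7, HDAC9, MEF2A and MEF2D was the same under all alternatives run. STIL lay between -2.01 and -1.95 (log2), HDAC9 between 2.24 and 2.35, HDAC4 between 0.78 and 0.91 and MEF2D between 0.63 and 0.70, and STIL, HDAC4 and MEF2D passed the threshold in each. With 1 library left out, MEF2A lay between 0.32 and 0.39 and missed the threshold in 4 of 6 fits. MEF2C, with few reads, lay between -0.08 and 0.42, the negative value without shSTIL replicate 3. HDAC5 lay between -0.13 and -0.06 and HDAC7 between -0.13 and -0.07, both nearest to 0 after median centring. With an adjusted p under 0.05, HDAC7 (-0.12) passed, and 8 known MEF2 targets were called. Where only genes averaging a log2 CPM of 1 or more were tested, 3 of these targets were called, since fewer were tested. Without the mean-variance trend, 7 export kinases and 0 of the 1 other MEF2 gene were called; the cause was not tested. Of the other named genes, HDAC2, MARK1, MAPK14, PRKAA1, PPARG, UPK1B, SYT1, COL1A1, BORCS8-MEF2B and FAM126A also missed the threshold there (limma adjusted p 0.0128 to 0.0695).

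The number of genes called, 7509, was 4900 to 5638 with 1 library left out, where fewer samples were fitted. In those fits 6 to 8 export kinases, 2 to 4 genes beside HDAC9, 4 to 5 known MEF2 targets and 0 to 1 other MEF2 gene were called. After median centring 55.5% of the calls were higher in shSTIL cells, against 49.9%, and the median of all genes moved from 0.005 to 0.048. Same-numbered replicates did not deviate together (correlations -0.121, -0.055 and -0.107), so no shared effect was seen. Whether same-numbered libraries were prepared together is not stated in the sources used here. With the replicate number as a block, 6898 genes were called, and of the named genes PRKAA1 (limma adjusted p = 0.0254), MAPK14 (0.0253), UPK1B (0.0126) and FAM126A (0.0122) were not. Among the members, depth limits MEF2C most, as the gene with the fewest reads, 6 to 14 per library.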
